A study of Mus musculus with 2 samples.

Results

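Cholesterol handling was described through 33 mouse genes, chosen by symbol for the making, sensing, uptake, storage, movement and export of cholesterol. All 33 were found among 43346 mouse gene rows measured in ovary. The list holds 8 genes of synthesis up to squalene, 10 of synthesis from squalene onward, 7 regulators, 2 genes of uptake, 4 of storage and intracellular transport, and 2 of export. The study sequenced polyadenylated RNA of ovaries from 8-week-old C57BL/6J females, littermates by the labels, with no treatment or genetic change named. It has 1 group of 2 libraries, replicate 2 and replicate 1. The labels call them biological replicates but cite the same donor record for both, so the spread between them may be technical. Levels are in TPM, a share of all transcripts that is corrected for transcript length and so allows genes to be compared within a library.

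Cells make cholesterol from acetyl-CoA through mevalonate and squalene, and also take it up from lipoproteins. Sterol-sensing membrane proteins and nuclear receptors adjust synthesis, uptake and export to the amount already present. In the ovary cholesterol is also the substrate of steroid hormones, and in rodents steroid-making cells draw much of it from high-density lipoprotein and keep a reserve as cholesteryl esters.

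The gene tables held 34930860 counts on genes in replicate 2 and 41124061 in replicate 1. Synthetic spike-in RNAs made up 0.986% of all counts in replicate 2 and 0.764% in replicate 1. Ratios are log2 of replicate 2 over replicate 1, after scaling the libraries by TMM, which makes most genes balance. With 1 library on each side no replicate test could be made. A two-sided exact binomial test, adjusted by the Benjamini-Hochberg method over 15939 genes at a threshold of 0.05, asked only whether the reads of these 2 libraries differed by more than counting error. By that test 56.1% of all tested genes differed, 29.1% higher and 27.0% lower in replicate 2, so passing it is common.

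All 33 genes were detected at 1 TPM or more in both libraries. Their median level was 34.1 TPM, against 12.7 TPM for all tested genes and 4.45 TPM for 21474 protein-coding genes. All 33 lay at or above the 50th percentile of protein-coding genes, and 10 lay at or above the 90th. Scarb1 was the highest at 985 ± 209.5 TPM and Idi1 the lowest at 7.34 ± 1.75 TPM (SD, n = 2 libraries). Scarb1 alone held 28.5% of the summed TPM of the list in replicate 2 and 32.5% in replicate 1. The summed level was 2935 TPM in replicate 2 and 3489 TPM in replicate 1.

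In order of mean level the genes ran Scarb1, Dhcr7, Soat1, Srebf1, Nr1h2, Npc2, Fdps, Srebf2, Scap, Insig1, Tm7sf2, Ebp, Sc5d, Mvk, Mvd, Abca1, Lss, Hsd17b7, Nr1h3, Npc1, Hmgcs1, Sqle, Mylip, Fdft1, Pmvk, Cyp51, Abcg1, Msmo1, Acat2, Insig2, Nsdhl, Stard4 and Idi1. For 21 of 32 neighbouring pairs in that order, the ranges between the values of the 2 libraries overlapped. Some overlapping pairs kept their order within each library and others changed it. Scarb1 stood clear of Dhcr7. Dhcr7 overlapped Soat1 but was above it in both libraries. Soat1 overlapped Srebf1 and was below it in replicate 2 but above it in replicate 1. Npc2, Fdps, Srebf2 and Scap each overlapped the next in line. Insig1 and Tm7sf2 did not overlap.

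**Figure D1:**
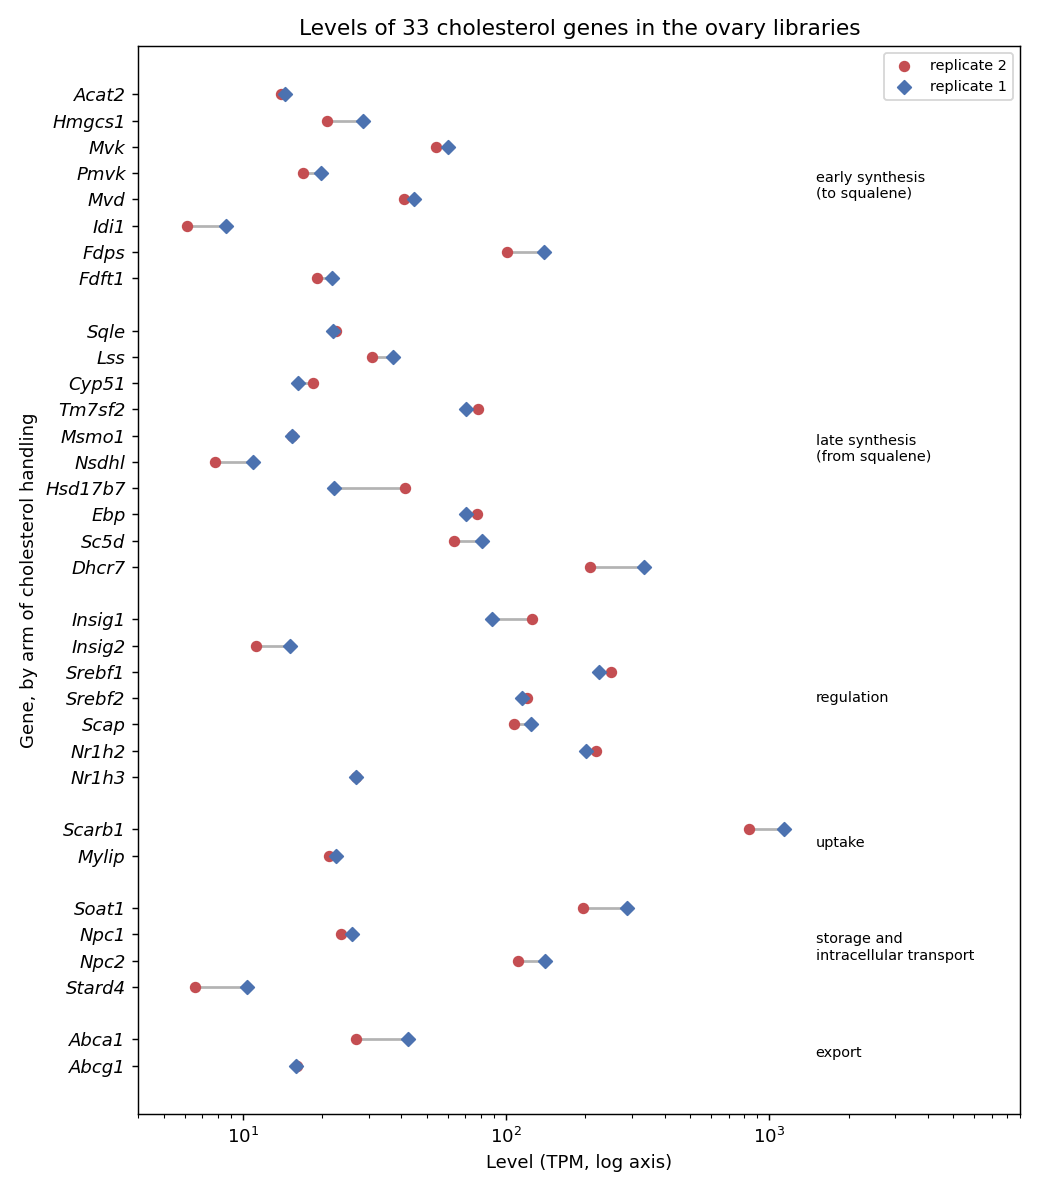
Level of each of the 33 genes in TPM on a log axis, by arm of cholesterol handling, with a circle for replicate 2, a diamond for replicate 1 and a line joining them. Scarb1 lies furthest right, at 837 TPM in replicate 2 and 1133 TPM in replicate 1, and Idi1 furthest left, at 6.10 TPM and 8.58 TPM.

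Of the 33 genes, 7 were higher and 17 lower in replicate 2 past the exact binomial test, and 9 did not pass. The share passing, 72.7%, was above the 56.1% of all tested genes but close to the 70.5% of the 9221 genes counted at least as deeply as the least counted member. Of the list 21.2% were higher and 51.5% lower, beside 37.8% higher and 32.7% lower among those deeply counted genes. The median log2 ratio of the list was -0.14, against -0.0056 for all tested genes, and 17 members lay inside the quartiles of all genes, -0.22 to 0.24. The median size of the ratio, without sign, was 0.22 for the list and 0.23 for all tested genes. Only Hsd17b7 differed by more than 2-fold on this scale, as did 3.99% of all tested genes and 158 of the 9221 deeply counted genes. When the libraries were instead scaled to the spike-ins, every ratio dropped by 0.43, and 2 members were higher and 31 lower, beside 7.16% of all tested genes higher and 71.7% lower. On that scale the members past 2-fold were Dhcr7, Abca1 and Soat1, all lower in replicate 2, and no longer Hsd17b7. All ratios that follow are therefore relative to the other genes. Counts by arm below are to be read beside the 37.8% higher and 32.7% lower among the deeply counted genes on the TMM scale. In whole tissue, fewer cells of a type and less RNA per cell cannot be told apart.

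**Figure D2:**
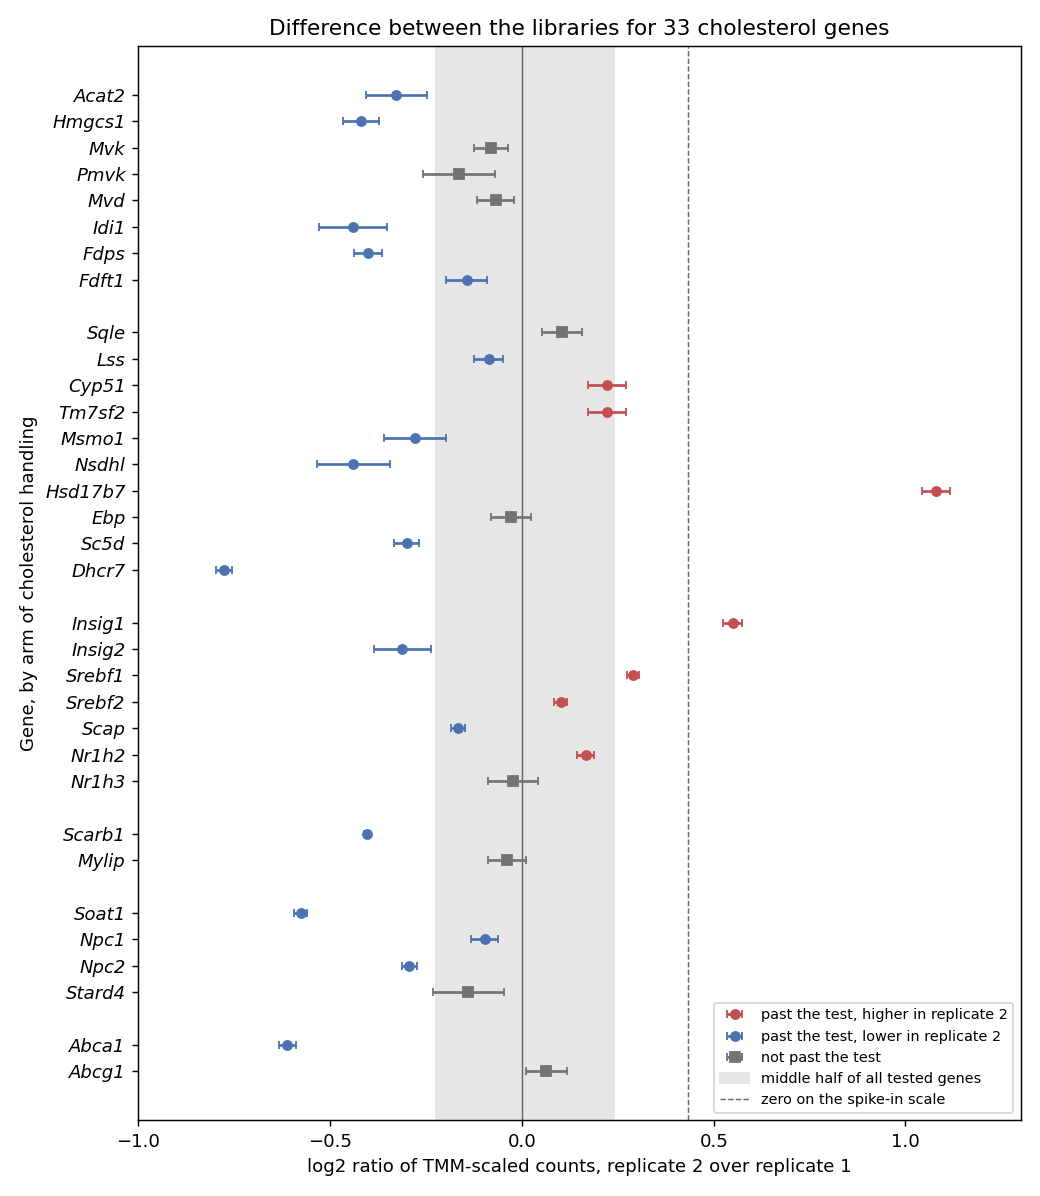
Log2 ratio of replicate 2 over replicate 1 for each gene after TMM scaling, with bars of 1 counting standard error; the grey band runs between the quartiles of all tested genes (-0.22 to 0.24) and the dashed line marks 0 on the spike-in scale. Hsd17b7 at 1.08 and Dhcr7 at -0.78 lie at opposite ends, and all 8 genes of synthesis up to squalene lie below 0.

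Early synthesis genes, which carry acetyl-CoA to squalene, had a median level of 22.5 TPM and were all lower in replicate 2 by their ratio. Of the 8, 5 passed the exact binomial test, all lower, and 3 did not, with a median log2 ratio of -0.25. Fdps, the farnesyl diphosphate synthase that feeds both sterol and protein prenylation, was the most abundant of them. It stood at 101 TPM in replicate 2 and 139 TPM in replicate 1, a log2 ratio of -0.40 (counting SE 0.036). Hmgcs1, which condenses acetoacetyl-CoA to HMG-CoA, stood at 20.8 TPM in replicate 2 and 28.6 TPM in replicate 1, a log2 ratio of -0.42. Idi1, the isomerase of isopentenyl diphosphate, was the least abundant at 6.10 TPM in replicate 2 and 8.58 TPM in replicate 1, with a log2 ratio of -0.44. Each of these was lower in replicate 2 and passed the test.

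Acat2, the cytosolic thiolase that makes acetoacetyl-CoA, had 13.9 TPM in replicate 2 and 14.5 TPM in replicate 1, nearly equal levels. Its counts were 531 in replicate 2 and 820 in replicate 1, and the log2 ratio of counts, -0.33, passed the test. The length used for this gene also differed, with an effective length of 1555 bases in replicate 2 and 1916 bases in replicate 1. The noncoding transcript Acat2-202 took 28.2% of the gene's TPM in replicate 2 and 0% in replicate 1. The protein-coding transcripts of Acat2 gave 9.97 TPM in replicate 2 and 14.5 TPM in replicate 1. On their counts the log2 ratio was -0.50. Fdft1, squalene synthase, stood at 19.1 TPM in replicate 2 and 21.7 TPM in replicate 1 and was also lower past the test, with a log2 ratio of -0.14. The enzymes in the middle of the route, mevalonate kinase Mvk, phosphomevalonate kinase Pmvk and the decarboxylase Mvd, did not pass. Mvk had 53.9 TPM in replicate 2 and 60.0 TPM in replicate 1, a log2 ratio of -0.08. Pmvk had 16.8 TPM in replicate 2 and 19.8 TPM in replicate 1, a log2 ratio of -0.16. Mvd had 40.9 TPM in replicate 2 and 44.5 TPM in replicate 1, a log2 ratio of -0.07. These 3 ratios lay inside the quartiles of all genes, and all 3 passed as lower when the libraries were scaled by their totals.

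The promoters of synthesis genes are textbook targets of sterol regulatory element binding proteins, which act beside CCAAT-binding and GC-box-binding factors. The 250 bases upstream of RefSeq starts on build GRCm38.p6 were searched on both strands for a sterol response element (TCACNCCAC), a CCAAT box (CCAAT), a GC box (GGGCGG) and an E-box (CACGTG). Promoters were matched for 26 of the 33 genes, as 35 windows. Sqle, Scarb1, Fdft1, Npc1, Stard4, Fdps and Abcg1 had no entry. Hmgcs1 is shown because it was the only gene with the sterol letters. Mvk is shown for its 5 CCAAT letters. Capitals mark the motifs on either strand. The Hmgcs1 window is chr13:119690101-119690350 on the plus strand, and that of Mvk is chr5:114444019-114444268 on the plus strand.
Hmgcs1: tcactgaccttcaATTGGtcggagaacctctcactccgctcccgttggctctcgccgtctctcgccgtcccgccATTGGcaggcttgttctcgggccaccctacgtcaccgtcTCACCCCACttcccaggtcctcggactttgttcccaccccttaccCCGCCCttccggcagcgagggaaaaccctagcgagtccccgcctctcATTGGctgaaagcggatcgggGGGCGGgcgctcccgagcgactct
Mvk: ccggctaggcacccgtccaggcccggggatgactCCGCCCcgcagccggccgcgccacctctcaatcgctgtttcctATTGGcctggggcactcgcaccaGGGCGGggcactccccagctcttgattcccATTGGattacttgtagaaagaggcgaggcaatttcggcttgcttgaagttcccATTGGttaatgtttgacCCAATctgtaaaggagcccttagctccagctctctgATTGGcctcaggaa
In Hmgcs1 the sterol letters lie 137 to 129 bases upstream of the start, with 3 CCAAT and 2 GC boxes around them.

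Across the matched genes the sterol letters were found in 1 of 35 windows, beside 1.05% of 32851 windows of all genes. CCAAT was found in 22 of 35 windows, beside 33.8% of all windows. By gene, in any of its windows, it was found in 14 of 15 matched synthesis genes, beside 37.5% of 27025 genes. GC boxes were found in 25 of 35 windows, beside 32.7% of all windows. By gene they were also found in 14 of 15 matched synthesis genes, beside 35.4% of 27025 genes. E-boxes were found in 6 of 35 windows, beside 6.02% of all windows. No 2 matches of different motifs overlapped. A match describes letters in a window and is not a binding site. Only these exact letters were searched, so a window without a match is not shown to lack such an element. Whether matches bear on the levels here was not tested.

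Late synthesis genes, which turn squalene into cholesterol, had a median level of 32.9 TPM and did not share a direction. Of the 10, 3 were higher and 5 lower in replicate 2 past the exact binomial test, with a median log2 ratio of -0.06, or -0.20 on protein-coding transcripts alone. Dhcr7 and Hsd17b7 marked the ends of the range.

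Dhcr7 (ENSMUSG00000058454.10, chr7:143823145-143848410, plus strand, GRCm38) encodes the reductase that closes one route to cholesterol, and it was the most abundant enzyme gene of the list. It stood at 208 TPM in replicate 2 and 333 TPM in replicate 1, on 6757 counts and 14245 counts. The log2 ratio was -0.78 (counting SE 0.021), lower in replicate 2, and 8.15% of all tested genes had a ratio of larger size. Much of its TPM lay in short annotated transcripts. Dhcr7-202, of 2556 bases, took 43.7% in replicate 2 and 51.5% in replicate 1. Dhcr7-209, of 713 bases, took 31.7% in replicate 2 and 32.1% in replicate 1. Dhcr7-210, annotated for nonsense-mediated decay, took 22.9% in replicate 2 and 12.9% in replicate 1. The 721 bases of Dhcr7-210 gave 47.6 TPM in replicate 2 and 42.8 TPM in replicate 1, whereas Dhcr7-202 gave 90.6 TPM in replicate 2 and 171.8 TPM in replicate 1.

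Hsd17b7 (ENSMUSG00000026675.8, chr1:169949535-169969241, minus strand, GRCm38) encodes a reductase of late cholesterol synthesis that is also known to make estradiol from estrone. It stood at 41.4 TPM in replicate 2 and 22.2 TPM in replicate 1, on 4142 counts and 2412 counts. The log2 ratio was 1.08 (counting SE 0.037), higher in replicate 2, and 3.22% of all tested genes had a ratio of larger size. On the spike-in scale the log2 ratio was 0.64, still higher in replicate 2 but within 2-fold. The form Hsd17b7-201 took 89.8% of its TPM in replicate 2 and 79.7% in replicate 1.

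Sc5d, a sterol desaturase, stood at 63.4 TPM in replicate 2 and 81.0 TPM in replicate 1, a log2 ratio of -0.30. Nsdhl, which removes carbon from the sterol ring as a dehydrogenase, stood at 7.79 TPM in replicate 2 and 10.9 TPM in replicate 1, a log2 ratio of -0.44. Both were lower in replicate 2 past the test. Lss, which folds squalene epoxide into lanosterol, stood at 31.0 TPM in replicate 2 and 37.2 TPM in replicate 1. Of this, protein-coding transcripts held 18.6 TPM in replicate 2 and 20.35 TPM in replicate 1. The log2 ratio of Lss, -0.09, was just past the threshold, with an adjusted p of 0.0436 by the exact binomial test. It did not pass with DESeq2 size factors or on protein-coding transcripts. Cyp51, the lanosterol demethylase, stood at 18.4 TPM in replicate 2 and 16.2 TPM in replicate 1. Tm7sf2, a sterol reductase, stood at 77.9 TPM in replicate 2 and 70.1 TPM in replicate 1. Both had a log2 ratio of 0.22, higher in replicate 2 past the test, and of -0.21 on the spike-in scale. Tm7sf2 overlaps Vps51 on the same strand, and 42.1% of its TPM in replicate 2 and 37.7% in replicate 1 lay in Tm7sf2-205. Sqle, squalene epoxidase, had 22.6 TPM in replicate 2 and 21.9 TPM in replicate 1, and its log2 ratio of 0.10 did not pass.

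For Ebp and Msmo1 most of the gene's TPM lay in transcripts annotated without a full coding sequence. Ebp, a sterol isomerase, stood at 77.2 TPM in replicate 2 and 70.4 TPM in replicate 1. A retained-intron form of 660 bases, Ebp-204, took 73.1% of this in replicate 2 and 61.4% in replicate 1. The coding form Ebp-201 gave 18.8 TPM in replicate 2 and 25.5 TPM in replicate 1. The gene's log2 ratio of counts was -0.03 and did not pass, whereas over protein-coding transcripts alone it was -0.38 and passed as lower. Msmo1, the methylsterol oxidase, was level at 15.3 TPM in both libraries while its log2 ratio of counts was -0.28, lower in replicate 2 past the test. The noncoding form Msmo1-204, of 816 bases, took 43.3% of its TPM in replicate 2 and 10.1% in replicate 1. The coding form Msmo1-201 gave 2.53 TPM in replicate 2 and 5.62 TPM in replicate 1. On protein-coding transcripts the log2 ratio of Msmo1 was -1.12. The gene totals of Ebp and Msmo1 were thus above the level of their coding RNA.

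**Figure D3:**
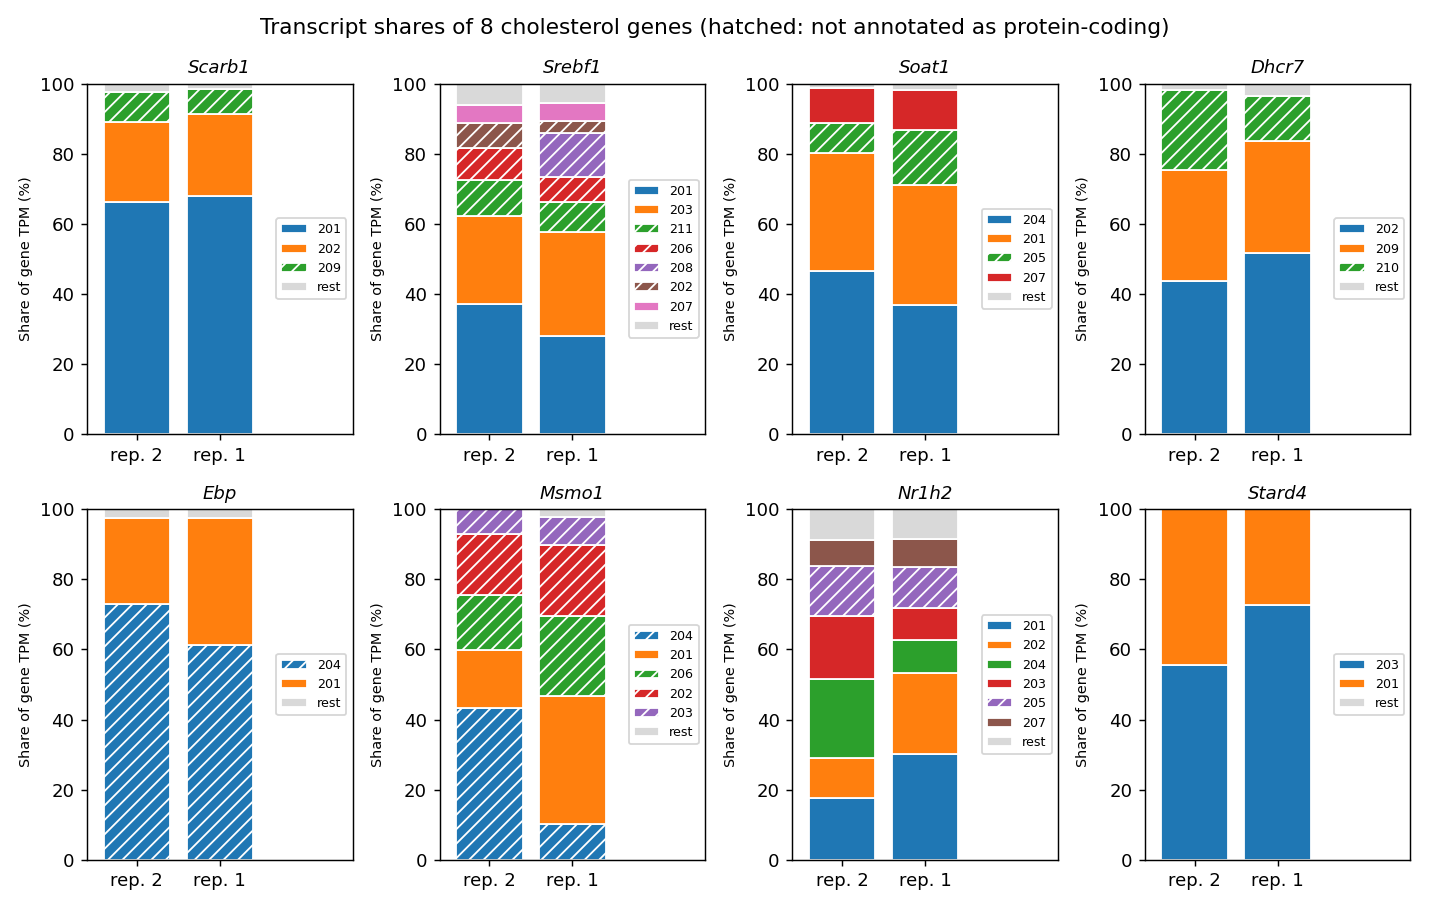
Share of the gene's TPM, in percent, held by the transcripts of 8 of the genes, with replicate 2 left of replicate 1 and hatching for forms not annotated as protein-coding. The Scarb1 bars are alike, with Scarb1-201 at 66.3% in replicate 2 and 68.0% in replicate 1, whereas Msmo1-204 holds 43.3% in replicate 2 and 10.1% in replicate 1.

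Regulators were the one arm with more genes higher than lower in replicate 2, an arrangement that turned round when the libraries were scaled to the spike-ins. Of the 7, 4 were higher and 2 lower past the exact binomial test, with a median log2 ratio of 0.10, and of -0.33 on the spike-in scale. The median level was 115 TPM. Insig1 holds the SREBP precursor and its escort Scap in the endoplasmic reticulum when sterols are plentiful, and it is itself a known SREBP target. Insig1 stood at 125 TPM in replicate 2 and 88.5 TPM in replicate 1, on 7682 counts and 6457 counts. Its log2 ratio was 0.55 (counting SE 0.024), higher in replicate 2 and still 0.12 on the spike-in scale. Insig2, its paralog, stood at 11.2 TPM in replicate 2 and 15.1 TPM in replicate 1, lower in replicate 2 past the test with a log2 ratio of -0.31. The posterior mean TPM of Insig2, also deposited, ran the other way, at 20.1 TPM in replicate 2 and 17.3 TPM in replicate 1. Scap stood at 107 TPM in replicate 2 and 124 TPM in replicate 1, also lower past the test with a log2 ratio of -0.17.

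Srebf2, which encodes the SREBP best known for driving cholesterol synthesis, stood at 120 TPM in replicate 2 and 115 TPM in replicate 1. Its log2 ratio was 0.10, higher in replicate 2 past the test but -0.33 on the spike-in scale. Nr1h2, which encodes the oxysterol receptor LXR beta, stood at 220 TPM in replicate 2 and 201 TPM in replicate 1. The log2 ratio of 0.17 was higher past the test but -0.27 on the spike-in scale. Nr1h3, which encodes LXR alpha, stood far lower at 26.9 TPM in replicate 2 and 26.8 TPM in replicate 1, and its log2 ratio of -0.02 did not pass. LXR beta RNA was thus the higher of the pair in both libraries, on the length-corrected scale.

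Srebf1 (ENSMUSG00000020538.11, chr11:60199089-60222581, minus strand, GRCm38) was the most abundant regulator at 251 TPM in replicate 2 and 226 TPM in replicate 1. Its log2 ratio was 0.29, higher in replicate 2 past the exact binomial test but -0.15 on the spike-in scale. The gene is known for a pair of first exons, which give SREBP-1a and SREBP-1c, the second being the main form in liver. Srebf1-201, which begins at the 1a exon, took 37.0% of its TPM in replicate 2 and 28.1% in replicate 1. Srebf1-207, which begins at the 1c exon, took 5.02% in replicate 2 and 5.0% in replicate 1. Srebf1-201 exceeded Srebf1-207 by 7.37 times in replicate 2 and 5.61 times in replicate 1. These 2 annotated transcripts also differ at their far end. Srebf1-207 stops at chr11:60200463, whereas Srebf1-201 and Srebf1-203 run on to chr11:60199089. The ratio therefore compares the 2 annotated transcripts and is not a measure of the first exons alone. A short noncoding form from the 1c side, Srebf1-208, was listed at 0 TPM in replicate 2 and at 27.9 TPM in replicate 1. With it added to Srebf1-207 the ratio stayed 7.37 in replicate 2 and was 1.62 in replicate 1. Srebf1-203, annotated with an incomplete start and so assigned to neither exon, took 25.1% in replicate 2 and 29.6% in replicate 1. The 250 bases upstream of each start show what the promoters share. The 1a window is chr11:60220628-60220877 and the 1c window chr11:60210472-60210721, both on the minus strand, with capitals for CCAAT and GC boxes.
Srebf1 upstream of the 1a start: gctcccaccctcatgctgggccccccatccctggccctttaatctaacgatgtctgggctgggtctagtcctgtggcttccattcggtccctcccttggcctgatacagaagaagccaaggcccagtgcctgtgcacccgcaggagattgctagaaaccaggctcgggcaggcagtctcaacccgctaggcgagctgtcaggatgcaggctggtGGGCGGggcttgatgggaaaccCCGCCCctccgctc
Srebf1 upstream of the 1c start: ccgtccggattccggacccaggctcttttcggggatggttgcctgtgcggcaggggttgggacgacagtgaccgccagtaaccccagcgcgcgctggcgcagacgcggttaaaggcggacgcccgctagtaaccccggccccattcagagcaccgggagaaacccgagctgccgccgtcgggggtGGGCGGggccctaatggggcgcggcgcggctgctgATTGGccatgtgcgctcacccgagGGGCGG
Each window holds 2 GC boxes, and the 1c window also a CCAAT box 30 to 26 bases upstream of the start.

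Uptake was dominated by Scarb1 (ENSMUSG00000037936.11, chr5:125277087-125341094, minus strand, GRCm38), the receptor for high-density lipoprotein through which steroid-making cells of rodents take cholesteryl ester. It stood at 837 TPM in replicate 2 and 1133 TPM in replicate 1, on 45483 counts and 74057 counts. Its log2 ratio was -0.40 (counting SE 0.0086), lower in replicate 2 past the exact binomial test. Its level was above that of 99.5% of protein-coding genes. Mylip, a ubiquitin ligase that sends lipoprotein receptors to degradation, stood at 21.2 TPM in replicate 2 and 22.5 TPM in replicate 1, and its log2 ratio of -0.04 did not pass.

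The receptor is known in a pair of forms with different cytoplasmic tails, SR-BI and SR-BII. Transcript Scarb1-201 has 13 exons and 509 codons, and Scarb1-202 has 12 exons and 506 codons. They differ by exon 12 of Scarb1-201, 129 bases at chr5:125281105-125281233 on the minus strand of GRCm38. It is shown because its presence separates the 2 forms, and its last 3 bases, in capitals, are the stop codon of the longer form.
Scarb1 exon 12: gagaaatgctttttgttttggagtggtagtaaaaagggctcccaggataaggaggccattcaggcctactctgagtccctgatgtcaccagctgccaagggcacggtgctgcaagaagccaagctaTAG
Scarb1-201, with the exon, took 66.3% of the gene's TPM in replicate 2 and 68.0% in replicate 1. Scarb1-202, without it, took 22.7% in replicate 2 and 23.4% in replicate 1. The form with the exon exceeded the form without it by 2.92 times in replicate 2 and 2.91 times in replicate 1. The ratio of forms was thus alike in libraries whose gene level differed. A retained-intron form, Scarb1-209, took 8.60% in replicate 2 and 7.01% in replicate 1.

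Storage and intracellular transport genes were all lower in replicate 2 by their ratio, and 3 of 4 passed the exact binomial test. Soat1 (ENSMUSG00000026600.8, chr1:156424525-156474331, minus strand, GRCm38) encodes the acyltransferase that esterifies cholesterol for storage in lipid droplets. It stood at 197 TPM in replicate 2 and 287 TPM in replicate 1, on 9922 counts and 18212 counts. The log2 ratio came to -0.58 (counting SE 0.018), lower in replicate 2. Soat1-204, of 821 bases, took 46.5% of its TPM in replicate 2 and 36.9% in replicate 1. Soat1-201, of 2925 bases, took 33.6% in replicate 2 and 34.3% in replicate 1. Npc2 and Npc1 pass cholesterol out of lysosomes. Npc2 stood at 111 TPM in replicate 2 and 140 TPM in replicate 1, a log2 ratio of -0.29. Npc1 stood at 23.7 TPM in replicate 2 and 26.0 TPM in replicate 1, a log2 ratio of -0.10, and both passed as lower. Stard4, a soluble sterol carrier, stood at 6.55 TPM in replicate 2 and 10.3 TPM in replicate 1, yet its log2 ratio of counts was -0.14 and did not pass. Its transcripts differed in share, with Stard4-203 at 55.5% in replicate 2 and 72.7% in replicate 1.

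The export genes differed from each other. Abca1, which loads cholesterol on lipid-poor apolipoprotein, stood at 26.9 TPM in replicate 2 and 42.3 TPM in replicate 1. This gave a log2 ratio of -0.61 (counting SE 0.022), lower in replicate 2 past the exact binomial test. Abcg1, which passes cholesterol to mature lipoprotein particles, stood at 16.1 TPM in replicate 2 and 15.8 TPM in replicate 1. Its log2 ratio of 0.06 did not pass, and was -0.37 on the spike-in scale.

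**Figure D4:**
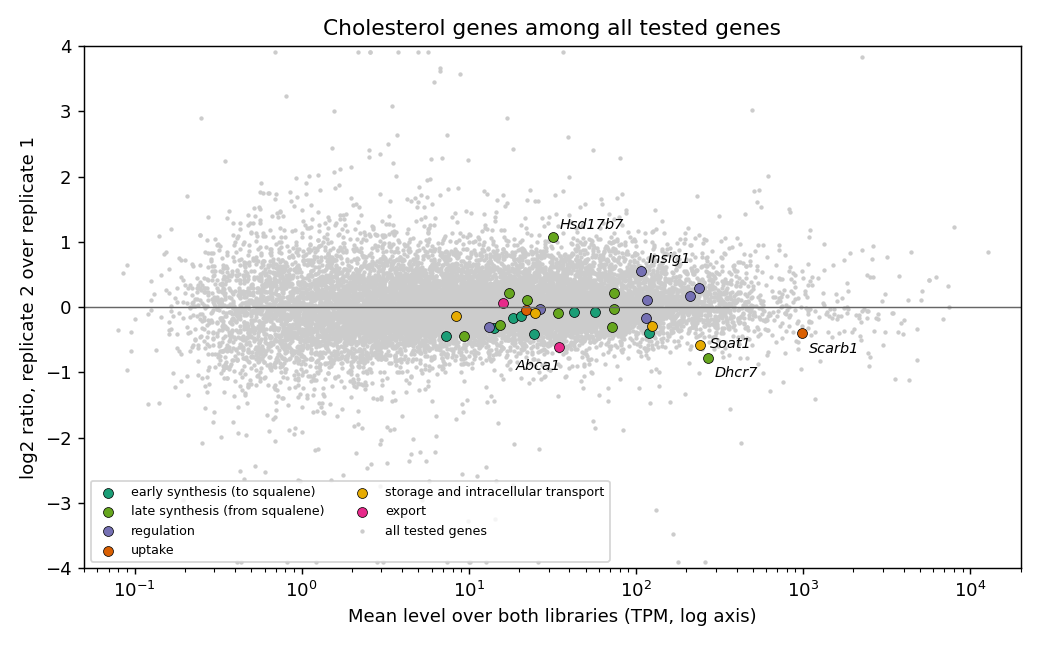
Log2 ratio of replicate 2 over replicate 1 against mean level in TPM on a log axis, with members in colour by arm and all tested genes behind them. Ratios beyond the frame are drawn at its edge; 17 members lie between the quartiles of all genes and Hsd17b7 alone lies past 2-fold on this TMM scale.

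Transcript shares moved by more than 10 percentage points between the libraries for 14 of the 163 transcripts listed for these genes. These transcripts belonged to Acat2, Dhcr7, Ebp, Hsd17b7, Msmo1, Nr1h2, Srebf1 and Stard4. For Nr1h2, Nr1h2-204 took 22.5% in replicate 2 and 9.22% in replicate 1, and Nr1h2-201 took 17.5% in replicate 2 and 30.2% in replicate 1. Of the 33 genes, 21 had at least 90% of their TPM in protein-coding transcripts in both libraries.

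Of 34 other genes of cholesterol handling, chosen for related steps such as lipoprotein receptors, lipases, carriers and the first steroid enzymes, 33 were detected at 1 TPM or more in both libraries. By the exact binomial test 11 were higher and 14 lower in replicate 2, and 9 did not pass, with a median log2 ratio of -0.09. The share passing, 73.5%, was close to the 70.5% of the 9221 deeply counted genes. By direction 32.4% were higher and 41.2% lower, beside 37.8% and 32.7% of those deeply counted genes. None differed by more than 2-fold in the log2 ratio of counts. In TPM the lipoprotein receptor gene Vldlr did, at 165.7 TPM in replicate 2 and 70.65 TPM in replicate 1, while its log2 ratio of counts was 0.42. Hsd3b1, the enzyme that converts pregnenolone to progesterone, had 1305 TPM in replicate 2 and 1689 TPM in replicate 1, lower past the test with a log2 ratio of -0.45. Cyp11a1, the side-chain cleavage enzyme that begins steroid synthesis, had 1325 TPM in replicate 2 and 1342 TPM in replicate 1. Its log2 ratio of counts, 0.04, passed as higher although its TPM was lower in replicate 2. Gramd1b, a carrier of plasma-membrane cholesterol, stood at 176 TPM in replicate 2 and 240 TPM in replicate 1. Its log2 ratio of -0.36 passed as lower. Tspo, a mitochondrial outer-membrane protein, stood at 386 TPM in replicate 2 and 393 TPM in replicate 1. Its log2 ratio of counts, 0.06, passed as higher, again opposite to its TPM. Lrp1, a lipoprotein receptor, stood at 275 TPM in replicate 2 and 292 TPM in replicate 1. Its log2 ratio of -0.04 passed as lower.

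Marker lists of the cells that an ovary sample could hold were read in the same way. The share passing the exact binomial test was 50% for macrophage, 60% for oocyte and 83.3% for adipocyte markers. It was 100% for markers of steroid-making, granulosa and red cells and for the testable hepatocyte markers. Beside these stood 56.1% of all tested genes and 70.5% of the 9221 genes counted at least as deeply as the least counted member. Markers of steroid-making cells summed to 3070 TPM in replicate 2 and 3488 TPM in replicate 1, with 2 of 5 higher and 3 lower past the exact binomial test. Hsd3b1 and Cyp11a1, which also stand among the other genes of cholesterol handling, made up most of that sum. Granulosa cell markers summed to 7015 TPM in replicate 2 and 8052 TPM in replicate 1, with 3 of 5 higher and 2 lower. Most of that sum was Inha, at 6279 TPM in replicate 2 and 7396 TPM in replicate 1, and the median log2 ratio of the granulosa list was 0.21. Oocyte markers summed to 281 TPM in replicate 2 and 352 TPM in replicate 1, with 3 of 5 lower. None of the markers of these ovarian cells was at 0 in both libraries. Macrophage markers summed to 586 TPM in replicate 2 and 736 TPM in replicate 1, with 4 of 8 lower. Hepatocyte markers summed to 17.1 TPM in replicate 2 and 53.3 TPM in replicate 1, with all 4 that could be tested lower. Adipocyte markers summed to 4230 TPM in replicate 2 and 3361 TPM in replicate 1, with 4 of 6 higher and 1 lower. Cfd made up most of that sum, at 2772 TPM in replicate 2 and 2081 TPM in replicate 1. Red cell markers summed to 2254 TPM in replicate 2 and 1085 TPM in replicate 1, with 5 of 5 higher. The part of any of these cells in the ratios of the cholesterol genes was not tested.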

How the data were processed

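The authors deposited, for each library, gene and transcript tables with expected counts (estimated counts), TPM, FPKM and the percent of a gene's TPM in each transcript, on GENCODE M4 and mm10 per the accompanying notes. For the aligner and quantifier, names are not given in the sources drawn on. Junction and contig tables were not used here. The members and lists were chosen with earlier results of these data known. Symbols and positions came from GENCODE M21 (42462 of 43346 genes matched) and promoters from RefSeq GRCm38.p6. All 33 members were named, and of the other genes the 5 with the highest mean TPM, and Vldlr for its difference in TPM.

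Expected counts were rounded. A minimum mean count of 20 was set for testing, after TMM scaling in edgeR 4.0.16 (R 4.3.3), with a prior count of 1 for ratios. The quasi-likelihood test of edgeR could not be fitted with 1 library on each side. The exact binomial test used scipy 1.17.1 with Benjamini-Hochberg adjustment. It covers counting error only, since there is 1 library on each side, and reads carry no molecular identifiers. It was tested on simulated data with counting error alone, which cannot show how it behaves under further spread between libraries. Members had 369 to 74057 counts, giving counting SEs of the log2 ratio from 0.0086 to 0.095. Alternatives were DESeq2 1.42.0 size factors, library-total and spike-in scaling, other filters, Bonferroni adjustment, TPM and posterior values, each library alone and, chosen after seeing the data, protein-coding transcripts only.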

Additional observations from a re-analysis of the deposited data

How the results depend on the processing

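Calls covered counting error between 2 libraries only. Reads shared between transcripts limit the shares, and the use of strand in counting was not stated. Scaling to the spike-ins moved most results. Members called higher became 2, called lower 31, and past 2-fold 3, namely Dhcr7 at -1.21, Abca1 at -1.05 and Soat1 at -1.01, without Hsd17b7 at 0.64. The median log2 ratio became -0.57 over the list, -0.68 in early synthesis, -0.49 in late synthesis, -0.33 in regulation, where it reversed, -0.66 in uptake, -0.65 in storage and transport and -0.71 in export. Reversed genes were Sqle at -0.33, Cyp51 at -0.21, Tm7sf2 at -0.21, Srebf1 at -0.15, Srebf2 at -0.33, Nr1h2 at -0.27 and Abcg1 at -0.37. Scaling to library totals turned Abcg1 to -0.00065 and made 20 members lower, adding Mvk at -0.14, Pmvk at -0.23 and Mvd at -0.13. With Bonferroni adjustment 5 members were higher and 10 lower by the exact binomial test; Cyp51, Tm7sf2, Acat2, Fdft1, Lss, Msmo1, Nsdhl, Insig2 and Npc1 no longer passed. On protein-coding transcripts 2 members passed 2-fold, and median levels were 24.8 TPM over the list and 21.9 TPM in late synthesis, whose median log2 ratio became -0.20. On log2(TPM + 1) none passed 2-fold, the late synthesis median turned to 0.022, Ebp to 0.13 and Nr1h3 to 0.0057; on log2(TPM + 0.1) the values were 0, 0.022, 0.13 and 0.0059. The median level of regulators was 119.7 TPM in replicate 2 alone and 114.7 TPM in replicate 1 alone. DESeq2 size factors, the filters on counts and posterior mean counts left 7 members higher and 16 to 17 lower. No paired analysis was possible because the libraries form 1 group.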

Other observations

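Several of the genes overlap a neighbour in the annotation. Cyp51 overlaps Akap9 on the opposite strand, and Akap9 stood at 26.4 TPM in replicate 2 and 8.57 TPM in replicate 1. Fdft1 overlaps Ctsb on the opposite strand, at 311 TPM in replicate 2 and 334 TPM in replicate 1. Srebf1 overlaps Rai1 on the opposite strand, at 73.0 TPM in replicate 2 and 71.5 TPM in replicate 1. Tm7sf2 overlaps Vps51 on the same strand, at 99.5 TPM in replicate 2 and 104 TPM in replicate 1. The libraries are stranded per the labels, but whether the counting used strand was not stated. For 28 of the 33 genes the deposited posterior SD of the count was 0 in both libraries, and the widest was that of Tm7sf2, at 19.2 counts in replicate 2 and 22.9 counts in replicate 1.

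The level of Insig2 depended on which deposited estimate was read. The authors' posterior mean gave 20.1 TPM in replicate 2 and 17.3 TPM in replicate 1, higher in replicate 2, whereas the TPM column was lower there, at 11.2 TPM in replicate 2 and 15.1 TPM in replicate 1. The share of Insig2-201 was 89.7% in replicate 2 and 85.4% in replicate 1, and by posterior mean 48.7% in replicate 2 and 73.0% in replicate 1. Insig2-209, of 204 bases and with an effective length of 6.38 bases in replicate 2, had an expected count of 0 in both libraries. By posterior mean it nevertheless held 31.3% of the gene's TPM in replicate 2, and 0% in replicate 1. The log2 ratio of counts of Insig2 was -0.31.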
